A study of Mus musculus with 5 samples.

Results

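The megakaryocyte, platelet and erythroid genes described here are a list of 36 gene symbols, found in the data by name. Of these, 31 were measured among 22180 genes, each by the array feature that lists only that gene and has the highest mean over all 5 arrays. The platelet branch held 18 measured genes of 20, the erythroid branch 10 of 13, and 3 were transcriptional regulators that both branches use. Gp1ba was not analysed here. Gp1bb, Hba-a1, Hbb-b1 and Alas2 were left out because each feature that lists them also lists another gene, so the adult globins and the erythroid aminolevulinate synthase are missing from the erythroid branch. The values came from hematopoietic stem cells (HSCs) of C57BL/6 mice. Stem and progenitor cells were cultured for 24 h with 5 µM all-trans retinoic acid (ATRA, 2 arrays) or with DMSO as control (3 arrays), and HSCs were sorted by FACS after the culture. The labels give no age and no allele beyond the strain, and do not say whether replicates were separate animals or cultures, so each p-value reflects the spread among these 5 arrays alone, and that spread may be a technical one. The study's title places the comparison in work on how vitamin A and retinoic acid bear on the exit of HSCs from dormancy.

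Megakaryocytes, which shed platelets, and erythroblasts, which become red cells, arise from closely related progenitors. GATA1 with its cofactor FOG1, encoded by Zfpm1, acts in both lineages, NF-E2 drives late megakaryocyte maturation and KLF1 drives the red cell program. Platelet transcripts such as Vwf, Itga2b and Selp are also known from HSCs themselves, where they mark cells biased toward the platelet lineage, while membrane proteins of the red cell belong to later erythroblasts. In RNA of a sorted population, fewer cells of a type and less RNA per cell cannot be told apart.

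The ATRA arrays differed from the DMSO arrays over the whole platform. The SD over all features was 1.96 to 1.97 in DMSO, 1.77 in ATRA replicate 1 and 1.49 in ATRA replicate 2. Pearson's r across features was 0.730 between the ATRA arrays against 0.966 to 0.978 among DMSO arrays. With the DMSO arrays, r was 0.811 to 0.834 for ATRA replicate 1 and 0.602 to 0.641 for ATRA replicate 2. ATRA replicate 1 thus correlated more closely with each DMSO array than with ATRA replicate 2. Genes whose features read high in DMSO read lower with ATRA: the median change was -1.58 on the log2 scale over 4450 genes with a DMSO mean over 8, and 0.32 over the 17730 others. A gene is called where its limma adjusted p over all 22180 genes is under 0.05, as for 15.5% of all genes in the lower and 6.48% in the higher direction. Of 9 measured genes on the HSC marker list, Kit, Mecom, Hlf and Flt3 were called lower and 0 higher. The list mixes positive markers with negative ones such as Flt3 and Cd48, so its falls are not all falls of genes that mark HSCs. The DMSO means of the 9 ran from 6.17 to 10.94. With the level trend described below removed, 0 of the 9 were called. The markers of other marrow cells had DMSO means from 3.87 to 7.36. Of 13 neutrophil and monocyte markers 1 was called higher, with summed log2 values of 75.9 to 80.3 in DMSO and 84.7 and 79.2 in ATRA. Of 7 mast cell and basophil markers 0 were called (32.3 to 33.9 against 35.9 and 38.5), and of 8 B and T lymphocyte markers 2 were called higher (44.1 to 44.8 against 46.9 and 51.4). With the level trend removed, 1 lymphocyte marker, Ighm, was still called higher (1.23, adjusted p = 0.0383). In that fit 0 markers of the other marrow cells were called. No marker list held a called fall outside the HSC markers, and a log2 array value has no 0 by which a marker could be called absent. The part of these markers in the results below was not tested.

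With ATRA, 4 of 18 platelet genes, 2 of 3 shared regulators and 1 of 10 erythroid genes fell, and most genes of both branches did not pass the test. In the platelet branch the integrin pair Itga2b and Itgb3, a thrombin receptor gene (F2r) and the granule protein gene Mmrn1 fell. Zfpm1 and Nfe2 fell among the 3 shared regulators, and the water channel Aqp1 was the 1 erythroid gene that fell. These 7 genes were 2.11-fold (Aqp1) to 8.85-fold (Zfpm1) lower. No member was called higher, and 24 did not pass. The platelet branch thus held 4 called falls among 18 genes (22.2%) and the erythroid branch 1 among 10, beside 15.5% of all genes called lower and 6.48% called higher. Both ATRA values lay below all DMSO values for 5 platelet genes, 2 shared regulators and 2 erythroid genes, and above them for 3 platelet and 4 erythroid genes. Over all genes those shares were 29.2% below and 33% above. The median change was -0.22 in the platelet branch, 0.35 in the erythroid branch and 0.16 over all genes. In ATRA replicate 1 the medians were -0.04 and 0.12 for the platelet and erythroid genes, and in replicate 2 they were -0.18 and 0.25. The difference between the branches was described and not tested.

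**Figure D1:**
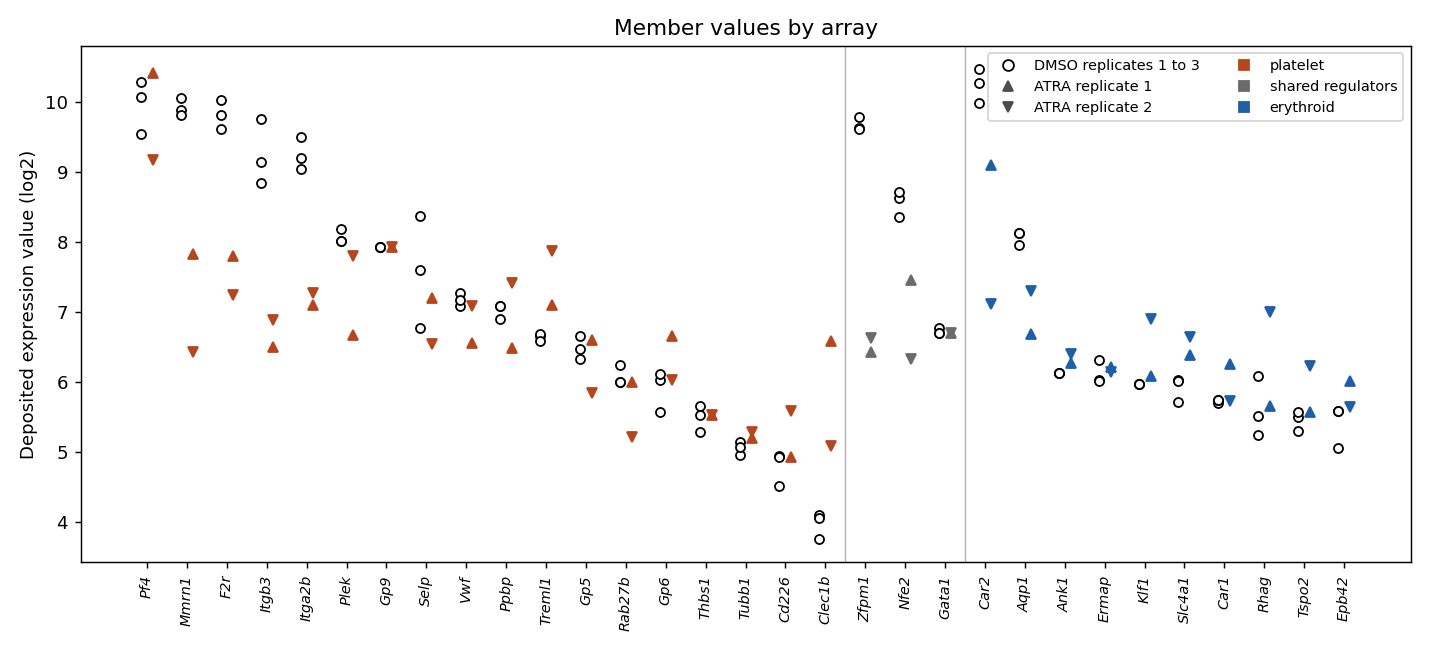
Deposited log2 expression value (vertical axis) of each of the 31 measured members (horizontal axis, ordered within each branch by DMSO mean), with DMSO replicates as open circles and ATRA replicates 1 and 2 as upward and downward triangles coloured by branch. The ATRA triangles of Zfpm1, Mmrn1, F2r, Itgb3 and Itga2b lie below their DMSO circles, while those of Pf4 lie at 10.41 and 9.17 on either side of its DMSO values.

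The members that fell were among those whose features read high in DMSO. All 10 members with a DMSO mean over 8 had a negative change and 7 of them were called, while 0 of the 21 others were called. Over all genes, 52.8% of those over 8 and 6.07% of the rest were called lower, and 0.787% and 7.91% were called higher. The change was negative for 4246 of all 4450 genes over 8 and positive for 12599 of the 17730 others. The platelet branch had 6 of its 18 genes over 8 and the erythroid branch 2 of 10, Aqp1 and Car2. Among genes over 8 the median change was -2.18 for the 6 platelet genes and -1.61 for the 2 erythroid genes. At 8 or less it was 0.02 for 12 platelet genes and 0.44 for 8 erythroid genes, all 8 of which had a positive change. The members were therefore also fitted after a smooth trend of each array's difference from the DMSO mean, taken along that mean, had been subtracted. In that fit, where 2.16% of all genes were called higher and 0.996% lower, the 7 falls were no longer called and 1 member, Pf4, was called higher. The branch medians then became -0.04 for platelet and -0.0026 for erythroid genes, against 0.02 over all genes, 6 of the 10 erythroid genes had a negative change, and the erythroid median was -0.09 after cyclic loess normalization, so its sign rested on the scaling. Centring each array on its median turned the split over all genes from 1437 higher and 3428 lower to 560 higher and 4542 lower.

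**Figure D2:**
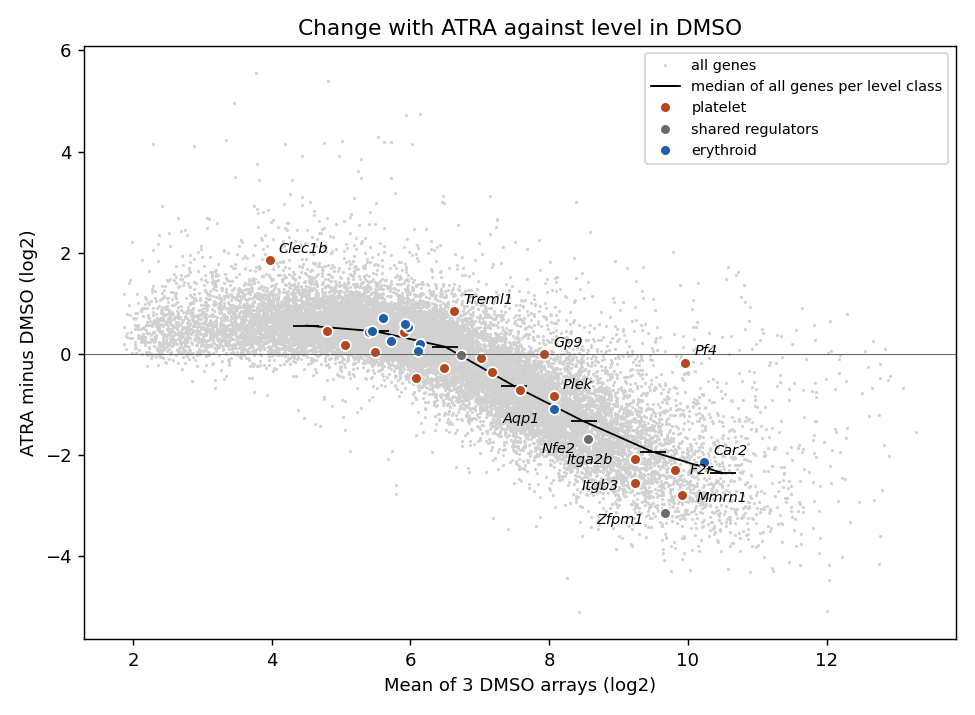
Change with ATRA (ATRA minus DMSO, log2, vertical axis) against the mean of the 3 DMSO arrays (log2, horizontal axis) for all genes in grey and the members coloured by branch, with a black line through the medians of all genes in level classes 1 unit wide from 4 to 11. The line runs from 0.45 between 5 and 6 down to -1.94 between 9 and 10, and Pf4 at -0.17 stands above it, while Clec1b at 1.86 lies left of where the line begins.

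Promoter sequences are shown for 5 members to set a platelet gene that fell and holds ETS letters (Itga2b), a granule gene that fell (Mmrn1), a granule gene that did not pass the test with the deposited values (Pf4), a platelet receptor gene (Gp5) and the erythroid regulator (Klf1) side by side. Each run is the 250 bases upstream of the RefSeq start on the gene's own strand, build GRCm38.p6, at chr11:102469884-102470133 (minus strand), chr6:60944067-60944316 (plus), chr5:90772185-90772434 (plus), chr16:30310782-30311031 (minus) and chr8:84901732-84901981 (plus), in that order. Capitals mark matches on either strand to a GATA motif, spelled AGATAA in its first form, with AGATAG as the second form, TGATAA as the third form and TGATAG as the fourth, and to an ETS motif, spelled CCGGAA in its first form and AGGAAG in the other.
Itga2b: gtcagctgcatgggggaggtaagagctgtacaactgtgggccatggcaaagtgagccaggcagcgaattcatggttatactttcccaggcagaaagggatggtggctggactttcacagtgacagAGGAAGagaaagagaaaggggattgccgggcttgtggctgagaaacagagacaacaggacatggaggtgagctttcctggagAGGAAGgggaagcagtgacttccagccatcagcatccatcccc
Mmrn1: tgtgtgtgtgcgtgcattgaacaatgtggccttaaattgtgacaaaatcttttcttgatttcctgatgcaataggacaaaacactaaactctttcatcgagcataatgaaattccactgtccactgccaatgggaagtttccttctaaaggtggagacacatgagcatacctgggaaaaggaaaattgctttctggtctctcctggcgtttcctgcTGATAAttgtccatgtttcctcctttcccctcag
Pf4: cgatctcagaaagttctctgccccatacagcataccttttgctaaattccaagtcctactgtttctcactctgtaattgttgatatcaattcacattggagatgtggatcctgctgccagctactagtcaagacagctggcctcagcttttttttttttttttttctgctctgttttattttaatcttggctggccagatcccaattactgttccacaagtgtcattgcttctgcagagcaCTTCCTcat
Gp5: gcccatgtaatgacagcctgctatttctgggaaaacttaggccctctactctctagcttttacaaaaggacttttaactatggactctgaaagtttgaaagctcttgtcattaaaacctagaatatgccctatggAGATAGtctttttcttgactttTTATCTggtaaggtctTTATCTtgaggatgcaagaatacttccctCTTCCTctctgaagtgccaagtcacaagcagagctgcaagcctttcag
Klf1: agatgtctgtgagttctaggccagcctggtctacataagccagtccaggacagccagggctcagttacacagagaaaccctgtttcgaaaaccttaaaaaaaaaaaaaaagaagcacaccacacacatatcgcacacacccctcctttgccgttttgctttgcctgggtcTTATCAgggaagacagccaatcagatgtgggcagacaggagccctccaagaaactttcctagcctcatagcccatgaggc
Itga2b shows 2 ETS matches and no GATA match, Mmrn1 a GATA match that begins 34 bases before the start, Pf4 an ETS match at the end of the run next to the start, Gp5 3 GATA matches and 1 ETS match, and Klf1 a GATA match that begins 80 bases before the start.

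Windows of 300 bases, 250 before to 50 after the start, were found for 25 of the 36 listed members, among them Gp1ba, Gp1bb, Hba-a1 and Alas2, which have no values here. GATA letters occurred in 6 of 8 erythroid windows and 7 of 15 platelet windows, against 29.8% of all 32851 windows. ETS letters occurred in 9 of 15 platelet and 3 of 8 erythroid windows, against 45.2% of all. A CACCC box, the kind of sequence KLF1 binds (CCACCC or CCNCNCCC, which can overlap), occurred in 7 of 8 erythroid and 7 of 15 platelet windows, against 58.3% of all. The letters that NF-E2 shares with AP-1 (TGAGTCA or TGACTCA) occurred only in the F2r window among the 25, against 5.2% of all. Of the 5 windows whose genes were called lower, 1 held GATA letters and 3 held ETS letters. A match is a run of letters and not a measured binding site.

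Both genes of the platelet fibrinogen receptor fell, and those measured for the von Willebrand factor receptor did not pass the test. Itga2b encodes integrin alpha IIb (CD41), also an early marker of blood stem cells, and Itgb3 encodes its beta 3 partner. Itga2b read 9.50, 9.19 and 9.04 in DMSO and 7.09 and 7.26 in ATRA. The groups did not overlap and the ATRA arrays lay close together (log2 change -2.07, SE 0.18, adjusted p = 0.00792, 4.19-fold lower). Itgb3 read 9.75, 8.84 and 9.15 in DMSO and 6.50 and 6.88 in ATRA (log2 change -2.55, SE 0.32, adjusted p = 0.0132, 5.87-fold lower). The RNA of both subunit genes thus read lower in both ATRA arrays, and the receptor itself was not measured. With the level trend removed, the changes were -0.23 for Itga2b (adjusted p = 0.766) and -0.71 for Itgb3 (adjusted p = 0.443). Gp5, a subunit of the von Willebrand factor receptor, read 6.33, 6.65 and 6.47 in DMSO and 6.60 and 5.83 in ATRA, with 1 ATRA value inside the DMSO range (log2 change -0.27, adjusted p = 0.443). Gp9, another subunit of that receptor, had the deposited value 7.93 in all 5 arrays, the same to the last digit. Such a feature shows no spread and tells nothing about ATRA. The value of 6 members was the same in 3 or more arrays, as for 17.4% of all genes.

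The other surface receptors read both ways. The related receptor genes F2rl3 and F2rl2, on the list of other platelet genes, did not pass and overlapped. F2rl3 differed by -1.38 (adjusted p = 0.273) and F2rl2 by -0.27 (adjusted p = 0.377). F2r encodes PAR1, 1 of several thrombin receptors, and which cells held its RNA was not measured. It read 9.82, 10.03 and 9.61 in DMSO and 7.80 and 7.23 in ATRA, with every ATRA value below every DMSO value (log2 change -2.30, SE 0.24, adjusted p = 0.00983, 4.92-fold lower). Clec1b encodes CLEC-2, the platelet receptor for podoplanin. It read 4.10, 3.76 and 4.06 in DMSO and 6.58 and 5.08 in ATRA, both above DMSO and far apart from each other, and did not pass (log2 change 1.86, SE 0.48, adjusted p = 0.0588). It had the lowest DMSO mean of the 31 members, in a range where features of all genes read higher with ATRA (median 0.57 for DMSO means under 4). Treml1 encodes TLT-1, a receptor stored in platelet granules, and read 6.65, 6.68 and 6.58 in DMSO and 7.10 and 7.87 in ATRA (log2 change 0.85, SE 0.26, adjusted p = 0.0831). For Treml1 the trend removal changed little (0.84, adjusted p = 0.126), and for Clec1b it left 1.31 (adjusted p = 0.256). Gp6, the collagen receptor, differed by 0.44 (adjusted p = 0.263) and Cd226, the adhesion receptor DNAM-1, by 0.46 (adjusted p = 0.245), each with overlapping groups.

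Of the alpha granule genes Mmrn1 fell, and Pf4, with a similar DMSO mean, did not pass the test. Mmrn1 encodes multimerin, a factor V carrier of alpha granules. It read 9.88, 9.81 and 10.05 in DMSO and 7.82 and 6.42 in ATRA, so that it was low in both ATRA arrays and lowest in replicate 2 (log2 change -2.79, SE 0.44, adjusted p = 0.0211, 6.93-fold lower). With the level trend removed it differed by -0.63 (adjusted p = 0.0907). Pf4 encodes platelet factor 4, the chemokine CXCL4, which megakaryocytes store in the same granules and which is known to hold HSCs quiescent. It read 10.28, 9.54 and 10.06 in DMSO and 10.41 and 9.17 in ATRA. ATRA replicate 1 lay above all DMSO arrays and replicate 2 below them (log2 change -0.17, SE 0.45, adjusted p = 0.767). Features with similar DMSO means behaved otherwise. Between DMSO means of 9 and 10 lay 1223 genes, of which 57.5% were called lower, their median change was -1.94, and 60 of them, Pf4 included, had a change at or above that of Pf4. In ATRA replicate 1 the class median was -1.36 and Pf4 differed by 0.45, and in replicate 2 the class median was -2.55 and Pf4 differed by -0.79.

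Pf4 ranked high within its level class in both ATRA arrays, where 93 of the 1223 genes in replicate 1 and 66 in replicate 2 were at or above it. With the level trend removed its change was 2.01 (SE 0.25, adjusted p = 0.0312), and after cyclic loess normalization it was 1.71 (adjusted p = 0.0461). After a further quantile normalization it was 0.51 and did not pass (adjusted p = 0.299). In the fit without the level trend, the change was 2.17 without ATRA replicate 1 (adjusted p = 0.0139) and 1.86 without ATRA replicate 2 (adjusted p = 0.0268), where the spread came from the DMSO arrays alone and the lone ATRA array was assumed to vary like them. Without DMSO replicate 1, 2 or 3 it was 2.09, 1.91 and 2.06 and the call ended each time (adjusted p = 0.186, 0.165 and 0.186). Pf4 was singled out after its values were seen. Its neighbour Ppbp, which encodes the related granule chemokine CXCL7 and starts 3917 bases away on the same strand, read 7.08, 7.08 and 6.90 in DMSO and 6.48 and 7.42 in ATRA. The ATRA values of Ppbp lay on either side of its DMSO values, and in the opposite order to those of Pf4 (log2 change -0.07, adjusted p = 0.859).

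Vwf encodes von Willebrand factor, the marker most used for platelet-biased HSCs. It read 7.08, 7.26 and 7.17 in DMSO and 6.55 and 7.08 in ATRA, with ATRA replicate 2 equal to DMSO replicate 1 (log2 change -0.36, SE 0.20, adjusted p = 0.235). Selp, the granule membrane adhesion molecule P-selectin, varied widely within DMSO, at 8.37, 6.77 and 7.60, and read 7.19 and 6.54 in ATRA (log2 change -0.71, SE 0.53, adjusted p = 0.319). Neither of these genes passed the test. Thbs1, the adhesive glycoprotein thrombospondin, read 5.52 in DMSO replicate 3 and in both ATRA arrays (log2 change 0.03, adjusted p = 0.872).

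The members listed for platelet cytoskeleton, signalling and secretion did not pass the test. Plek encodes pleckstrin, a major substrate of protein kinase C in platelets, and read 8.19, 8.01 and 8.01 in DMSO and 6.67 and 7.80 in ATRA. Both ATRA values lay below DMSO, replicate 2 by little (log2 change -0.83, SE 0.36, adjusted p = 0.161). Rab27b, a small GTPase of granule secretion, differed by -0.47 (adjusted p = 0.241), and read 6.00 in DMSO replicates 2 and 3 and in ATRA replicate 1. Tubb1, the beta-tubulin of the platelet marginal band, differed by 0.19 (adjusted p = 0.272).

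**Figure D3:**
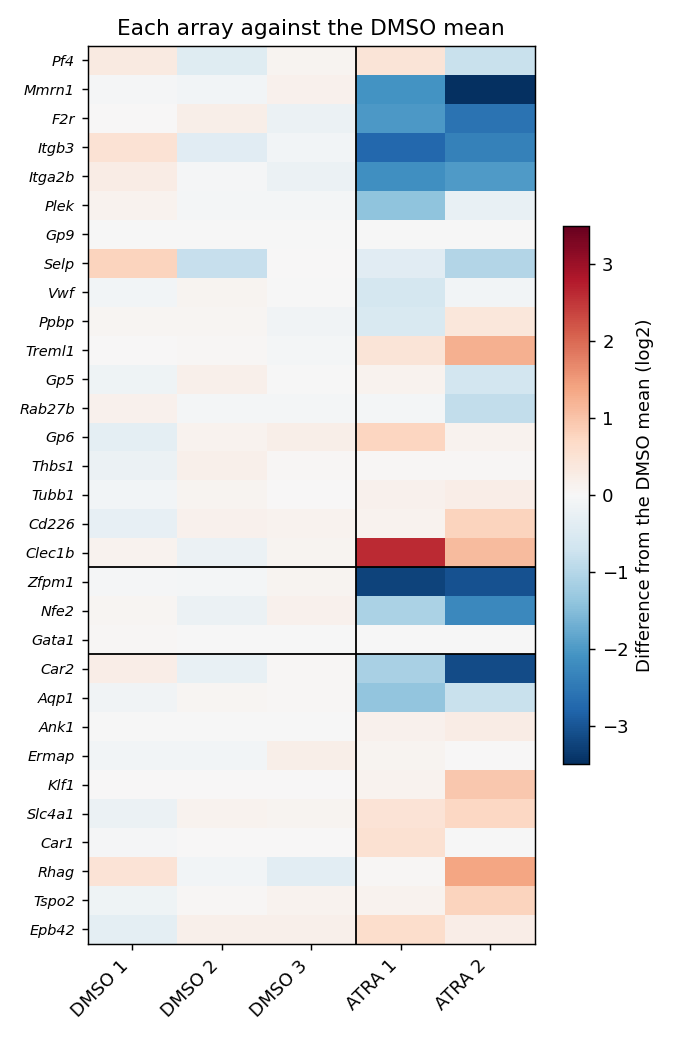
Difference of each array from the DMSO mean (colour, log2 units) for the 31 measured members (rows, grouped from top to bottom as platelet genes, shared regulators and erythroid genes) in the 5 arrays (columns). The blue blocks of Mmrn1, F2r, Itgb3, Itga2b, Zfpm1 and Nfe2 appear in both ATRA columns, and Pf4 is at 0.45 and -0.79.

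Zfpm1 and Nfe2 fell among the shared regulators, and Gata1 did not pass the test. Zfpm1, the GATA1 cofactor FOG1, had the largest change of the 31 members. It read 9.63, 9.62 and 9.78 in DMSO and 6.42 and 6.63 in ATRA, with little spread in either group (log2 change -3.15, SE 0.13, adjusted p = 0.00627, 8.85-fold lower). With the level trend removed its change was -1.09 (SE 0.47, adjusted p = 0.244). Nfe2, the large subunit of NF-E2, read 8.63, 8.35 and 8.71 in DMSO and 7.45 and 6.32 in ATRA, below DMSO in both arrays but farther in replicate 2 (log2 change -1.68, SE 0.38, adjusted p = 0.043, 3.20-fold lower). Gata1 read 6.77 in DMSO replicate 1 and 6.70 in the other 4 arrays, whose deposited values were equal (log2 change -0.03, adjusted p = 0.856). The feature of Gata1 thus showed almost no variation in either group.

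In the erythroid branch the water channel gene Aqp1 fell, and the other 9 genes did not pass the test. Aqp1 encodes aquaporin-1, which carries the Colton antigen. It read 7.95, 8.12 and 8.12 in DMSO and 6.68 and 7.29 in ATRA, with no overlap (log2 change -1.08, SE 0.22, adjusted p = 0.0365, 2.11-fold lower), and with the level trend removed it differed by -0.0039 (adjusted p = 0.996). Car2 encodes carbonic anhydrase II, which erythroid cells share with several other tissues. It read 10.46, 9.98 and 10.27 in DMSO and 9.10 and 7.11 in ATRA, where the arrays lay far apart, and did not pass (log2 change -2.13, SE 0.63, adjusted p = 0.0773). Car1, the more erythroid carbonic anhydrase, read 5.70, 5.74 and 5.74 in DMSO and 6.26 and 5.72 in ATRA (log2 change 0.27, adjusted p = 0.31). Only ATRA replicate 1 stood above DMSO for Car1.

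Slc4a1 encodes band 3, the anion exchanger of the red cell membrane, and read 5.71, 6.03 and 6.02 in DMSO and 6.39 and 6.64 in ATRA. The lower ATRA value still exceeded the highest DMSO value (log2 change 0.60, SE 0.17, adjusted p = 0.0725). Ank1, the ankyrin that ties band 3 to spectrin, read 6.13 in all 3 DMSO arrays and 6.27 and 6.40 in ATRA (log2 change 0.20, adjusted p = 0.231), and its other feature differed by 0.04. Epb42, protein 4.2 of the same complex, differed by 0.43 (adjusted p = 0.234). Klf1 read 5.96 in all 3 DMSO arrays, equal to the last deposited digit, and 6.09 and 6.90 in ATRA (log2 change 0.53, SE 0.27, adjusted p = 0.204). Rhag, the Rh-associated glycoprotein, differed by 0.72 (SE 0.50, adjusted p = 0.288), from 6.08, 5.51 and 5.24 in DMSO to 5.66 and 6.999 in ATRA. The higher mean of Rhag came from ATRA replicate 2. Tspo2, an erythroid cholesterol-binding protein gene, differed by 0.45 (adjusted p = 0.223) and Ermap, the Scianna antigen gene, by 0.06 (adjusted p = 0.747). Among all genes with a DMSO mean from 5 to 6, where 9 members lay, the median change was 0.45, and with the level trend removed the 10 erythroid genes ran from -0.22 (Ermap) to 0.30 (Rhag).

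**Figure D4:**
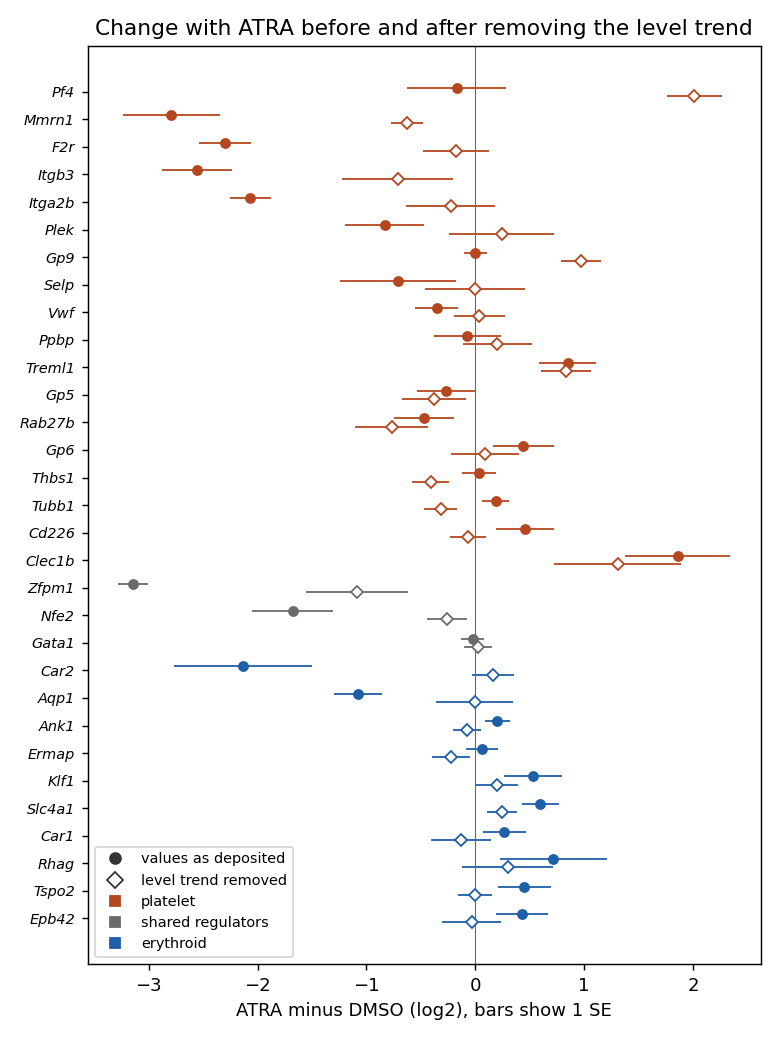
Change with ATRA (ATRA minus DMSO, log2, horizontal axis, bars 1 SE of the limma fit) of each measured member (vertical axis) for the values as deposited (filled circles) and with the level trend removed (open diamonds), coloured by branch. The changes of Itga2b, F2r, Nfe2 and Aqp1 become -0.23, -0.17, -0.26 and -0.0039 and that of Zfpm1 -1.09, while Pf4 moves from -0.17 to 2.01 and Gp9, equal in all arrays, from 0 to 0.97.

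Other genes of both lineages are set beside all genes, of which 15.5% were called lower and 6.48% higher. Of 75 other platelet genes measured, 0 were called higher, 24 lower and 51 did not pass, with a median change of -0.76. The falls with the smallest p were those of Fermt3, the integrin activator kindlin-3 (-3.27, adjusted p = 0.00627), Vps33b, needed to form alpha granules (-3.13, adjusted p = 0.00627), and Tuba8, an alpha-tubulin (-2.48, adjusted p = 0.00627). Of 72 other erythroid genes, 2 were called higher, 17 lower and 53 did not pass, with a median of -0.44. The falls with the smallest p there were Slc14a1, the urea transporter of the Kidd antigen (-2.52, adjusted p = 0.00665), Slc25a39, a mitochondrial glutathione carrier (-1.67, adjusted p = 0.00692), and Slc25a37, the iron importer mitoferrin-1 (-2.10, adjusted p = 0.00776). The rises were the heme-binding protein gene Hebp1 (0.66, adjusted p = 0.0468) and the embryonic globin gene Hba-x (0.90, adjusted p = 0.049). Hba-x read low in DMSO (mean 4.48), and in its level class, 4 to 5, the median change was 0.56 and 14.9% were called higher. Neither rise was called with the level trend removed, at 0.42 for Hebp1 (adjusted p = 0.161) and 0.36 for Hba-x (adjusted p = 0.267). The median DMSO mean was 7.84 for the platelet and 7.59 for the erythroid list, against 6.20 over all genes. With the level trend removed, 3 platelet genes were called higher and 1 lower, and 1 erythroid gene each way, and the medians were -0.07 and -0.01.

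The upstream regulators that were measured all read lower in both ATRA arrays than in any DMSO array, as did 29.2% of all genes. Of these 7 genes 4 were called lower, beside 15.5% of all genes and 52.8% of those with a DMSO mean over 8. Fli1, the ETS factor of megakaryocytes, read 10.33, 10.18 and 10.60 in DMSO and 7.37 and 6.24 in ATRA (log2 change -3.56, adjusted p = 0.0102). Gata2, the GATA factor of stem cells and early progenitors, fell by 2.99 (adjusted p = 0.0165), Gfi1b, a repressor both branches need, fell by 2.79 (adjusted p = 0.0201) and Tal1, a partner of GATA1, fell by 0.98 (adjusted p = 0.0165). Runx1 (-2.54, adjusted p = 0.0684), the erythropoietin receptor gene Epor (-0.98, adjusted p = 0.122) and the transferrin receptor gene Tfrc (-0.56, adjusted p = 0.278) did not pass. None of these 7 genes was called with the level trend removed, where Fli1 differed by -1.22 (adjusted p = 0.0757).

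Every call with the deposited values rested on all 3 DMSO arrays. With any 1 of DMSO replicates 1, 2 and 3 left out, 0 of 22180 genes passed limma's adjusted threshold. Before adjustment, 9, 9 and 8 of the 31 members then lay under 0.05, as did 5991, 6065 and 5907 of all genes, where the full set of arrays gave 11 members and 8935 genes. Leaving out ATRA replicate 1 or 2 left a lone ATRA array, assumed to vary like DMSO. Counts of calls from those fits are not read as a result. The platelet median was -0.18 without ATRA replicate 1 and -0.04 without ATRA replicate 2, and the erythroid median was 0.25 and 0.12. The 7 members called lower had a negative change under each of 14 other settings, but not all of these could have changed it. Leaving out dim features, the intensity trend with a robust prior and averaged features left these estimates as they were. The replicate block repeated the estimates without DMSO replicate 3. Over the 7 members and 14 settings the call was lost 50 times and held 48 times. The held calls include those unchanged settings and the fits with a lone ATRA array. The sign says little where the change was close to 0, as for Aqp1 with the level trend removed. An exact permutation test of 3 against 2 arrays, two-sided, cannot give a p below 0.1.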

How the data were processed

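The authors deposited log2 expression values, 1 per array feature and array, and the submitters' processing notes name RMA, oligo 1.36.1 and limma 3.28.20 without saying what each was used for. RMA summarizes the probes of a feature on the log2 scale. Not given in the sources used here: the genome build, and whether the 5 arrays were normalized as 1 set. Of 41345 features, 25335 were listed in the platform table, 23521 of them with 1 gene, and symbols were updated by gene identifier through RefSeq (GRCm38.p6). Groups and replicate numbers come from the sample titles.

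ATRA was compared with DMSO over all 22180 genes with limma 3.58.1 (R 4.3.3), using lmFit and eBayes with a mean per group. Tests were two-sided, and p-values adjusted by Benjamini-Hochberg were called under 0.05. The code was tested on simulated data. Residual degrees of freedom numbered 3, and the prior added 1.52. For the level trend, a lowess curve (span 0.2) of each array's difference from the DMSO mean was subtracted. Other settings left out each array, blocked on replicate number, left out dim features (mean under 6.07), changed the normalization or variance model, averaged features, or changed the threshold. All 31 measured members are named. Of the other platelet and erythroid lists, the 3 called higher and the 3 called lower with the smallest p are named. A fixed set of regulators and, beside F2r, the genes F2rl3 and F2rl2 are named too. The members and lists were chosen with earlier results of these data known. Replicates 1 and 2 carry the same numbers in both groups, but nothing in the labels ties them to shared animals or days. The number of arrays limits the precision. Promoter letters were read from the RefSeq table, both strands.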

Additional observations from a re-analysis of the deposited data

How the results depend on the processing

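Over the 31 measured members, the 7 called falls had a negative change under all 14 other settings of the fit, some of which could not change it. Over the 7 members and 14 settings the call was lost 50 times and held 48 times. With the level trend removed 3 of the 7 changes were -0.0039 (Aqp1), -0.17 (F2r) and -0.23 (Itga2b). Of the 24 other members, 15 changed sign under at least 1. The cause was not tested. Leaving out 1 array at a time, platelet members called lower ran from 0 to 7 and called higher from 0 to 2, erythroid members called lower from 0 to 2 and called higher from 0 to 3, all genes called higher from 0 to 7424 and lower from 0 to 6783, the platelet median change from -0.25 to -0.040 and the erythroid median from 0.12 to 0.39. The changes ran from -0.068 to 0.12 for Thbs1, -0.54 to 0.40 for Ppbp, -0.0046 to 0.54 for Car1, -0.65 to 0.11 for Gp5 and -0.79 to 0.45 for Pf4. With the replicate block, 0 platelet and 0 erythroid members were called lower, and of all genes 0 were called higher and 0 lower by limma, though 5412 genes and 9 members had an unadjusted p under 0.05. The labels do not tie the numbers to shared animals or days, so the numbers were not taken as pairs. The deviations of same-numbered arrays from their group means correlated at 0.13 and 0.10 in the 2 pairs. With 2 ATRA arrays their deviations are equal and opposite, so these values cannot decide whether the arrays were paired. Array weights gave 0 calls for both branches and for all genes in each direction (4377 genes and 9 members had an unadjusted p under 0.05), an erythroid median of 0.28, and changes of -0.026 for Thbs1 and -0.0053 for Ermap.

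Without dim features, 516 genes were called higher and the medians were -0.36 for platelet and 0.13 for erythroid members. A further quantile normalization called 439 genes higher and 1743 lower and 0 erythroid members lower, with an erythroid median of 0.032, and turned the sign of Pf4 (0.51), Ppbp (0.24), Thbs1 (-0.35), Tubb1 (-0.23), Gata1 (0.0022), Car1 (-0.068) and Ermap (-0.19). Cyclic loess called 771 genes higher and 1504 lower, 1 platelet member higher, 1 lower and 0 erythroid members lower, with medians of -0.15 and -0.088, and turned Cd226 (-0.070), Pf4 (1.71), Plek (0.031), Ppbp (0.17), Thbs1 (-0.46), Tubb1 (-0.33), Ank1 (-0.12), Car1 (-0.18), Epb42 (-0.059), Ermap (-0.29) and Tspo2 (-0.028). Centring on the median called 560 genes higher, gave medians of -0.49 and 0.076, and turned Thbs1 (-0.24), Tubb1 (-0.084), Ank1 (-0.068), Car1 (-0.0045) and Ermap (-0.21). It moved the median of all genes from 0.16 to -0.11. Removing the level trend called 479 genes higher and 221 lower, 1 platelet member higher, 0 lower and 0 erythroid members lower, with medians of -0.037 and -0.0026, and turned Cd226 (-0.068), Pf4 (2.01), Plek (0.24), Ppbp (0.20), Thbs1 (-0.41), Tubb1 (-0.32), Vwf (0.036), Gata1 (0.023), Ank1 (-0.076), Car1 (-0.13), Car2 (0.16), Epb42 (-0.034), Ermap (-0.22) and Tspo2 (-0.0013). A threshold of 0.1 called 2 of 18 platelet members and 1 of 10 erythroid members higher, and 2 of 10 erythroid members lower. Of all 22180 genes it called 3083 higher and 4672 lower.

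The intensity trend with a robust prior, averaged features and a 1.5-fold minimum changed no member's call. The Pf4 values without the level trend and with an array left out were added after seeing the data, as was a wider lowess span of 0.5 (2.10, adjusted p = 0.0239). With 3 and 2 arrays, 1 array can end every call. Low values may limit what dim features can show, which was not tested. For the 6 of 31 members with the same value in 3 or more arrays, the spread between arrays may not be that of the RNA.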
